A study of Mus musculus with 14 samples.

Results

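The *Xlr* genes are a family of X-linked genes present as 10 named copies among the 23298 genes of the deposited table: *Xlr*, *Xlr3a*, *Xlr3b*, *Xlr3c*, *Xlr4a*, *Xlr4b*, *Xlr4c*, *Xlr5a*, *Xlr5b* and *Xlr5c*. They were taken by symbol, and the family was picked because several members show some of the widest differences of the data set between XX and XY cells, so that XX against XY levels are given here as a description without a test. RNA-seq was performed on 14 mouse embryonic stem (ES) cell lines, each from a different blastocyst, at early passage and undifferentiated in serum with LIF. BC lines had a C57BL/6J mother and a CAST/EiJ father, and CB lines the reverse. There were 3 BC XX, 3 CB XX, 3 BC XY and 3 CB XY lines, and 2 BC XO lines with a single X chromosome. All lines were grown on mouse embryonic fibroblasts, from which they were separated in consecutive steps before RNA was taken, so some fibroblast RNA can remain. The study asked how the sex chromosome complement affects expression before gonads form and how far strain contributes. Values are normalised read counts, that is, reads per gene that the authors had brought to a common depth.

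X-linked lymphocyte-regulated (*Xlr*) genes were named for the lymphocytes in which the founding member was found. They encode nuclear proteins related to SYCP3, a structural component of the synaptonemal complex that holds paired chromosomes together in meiosis. *Xlr3b*, *Xlr4b* and *Xlr4c* are known as imprinted genes in mouse brain, where the copy on the maternal X is the more active one. In undifferentiated XX ES cells both X chromosomes are active, whereas XY cells hold only the X of the mother.

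By annotation *Xlr* lies by itself, and the other 9 members form a cluster. In the mm9 build with Gencode vM1 genes, *Xlr* spans chrX:51080295-51100883 on the minus strand. The cluster spans chrX:70319684-70538315, a stretch of 218.6 kb that begins 19.2 Mb further along the chromosome. The *Xlr3* subfamily is *Xlr3a* (chrX:70331632-70342434, minus strand), *Xlr3b* (chrX:70437546-70448269, plus strand) and *Xlr3c* (chrX:70499879-70510729, minus strand). The *Xlr4* subfamily is *Xlr4a* (chrX:70319684-70327817, minus), *Xlr4b* (chrX:70459672-70467795, plus) and *Xlr4c* (chrX:70479027-70488469, minus). *Xlr5a* (chrX:70352974-70363041, minus), *Xlr5b* (chrX:70394135-70404211, plus) and *Xlr5c* (chrX:70528235-70538315, minus) make up the *Xlr5* subfamily. All 10 are annotated as protein-coding. The deposited table carries no coordinates, so each gene was placed by its symbol alone. This leaves a doubt for *Xlr*, since the study listed a gene of that name at the start of *Xlr5b*, inside the cluster. Which of these places the reads counted under *Xlr* came from is uncertain, and statements on its position, promoter and neighbours hold for the gene as annotated. *Gm14685* overlaps *Xlr5a* and *DXBay18* overlaps *Xlr5b*, and reads within such an overlap may have gone to either gene.

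The copies are so alike that 50-base reads often cannot be given to 1 of them. The annotated coding transcripts were broken into all their 50-base stretches, the length of the reads, and each stretch was looked up in every other coding transcript and on both strands of the X chromosome. *Xlr3a* had 41.2% of its stretches to itself, *Xlr3c* had 18.4% and *Xlr3b* 4.36%. In the *Xlr4* subfamily these shares were 28.1% for *Xlr4a*, 26.5% for *Xlr4c* and 23.7% for *Xlr4b*. Of the *Xlr5* genes, *Xlr5a* had 13.4%, *Xlr5c* 11.9% and *Xlr5b* 5.9%. *Xlr* shared no stretch with another member and had 58.5% to itself, and its other 41.5% also occurred elsewhere on the X chromosome or in other transcripts. How reads with several matches were counted is not given in the sources used here, so the split between sister copies is uncertain and sums over each subfamily and over the family are reported beside the single genes.

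Promoter sequences are shown for 1 gene of each subfamily and for *Xlr*. All of these genes were higher in XX than in XY lines, the difference on which the family was picked, and their promoters differ between subfamilies. The sequences were taken from RefSeq (GRCm38.p6), where all 10 members had an entry. Each window runs from 250 bases before to 50 bases after the annotated gene start, in the direction of transcription. Capitals mark CCAAT, the core of a common promoter element, and the letters GCATGNGC, each searched on both strands. The windows lie at chrX:53797657-53797956 for *Xlr*, chrX:73097046-73097345 for *Xlr3a*, chrX:73082458-73082757 for *Xlr4a* and chrX:73117653-73117952 for *Xlr5a*, all on the minus strand of GRCm38.p6.
Xlr: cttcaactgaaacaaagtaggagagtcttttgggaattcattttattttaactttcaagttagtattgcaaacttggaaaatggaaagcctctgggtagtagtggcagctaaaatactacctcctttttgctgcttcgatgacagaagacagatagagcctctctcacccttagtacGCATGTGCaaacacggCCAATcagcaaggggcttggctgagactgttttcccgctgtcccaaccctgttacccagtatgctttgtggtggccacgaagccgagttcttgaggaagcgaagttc
Xlr3a: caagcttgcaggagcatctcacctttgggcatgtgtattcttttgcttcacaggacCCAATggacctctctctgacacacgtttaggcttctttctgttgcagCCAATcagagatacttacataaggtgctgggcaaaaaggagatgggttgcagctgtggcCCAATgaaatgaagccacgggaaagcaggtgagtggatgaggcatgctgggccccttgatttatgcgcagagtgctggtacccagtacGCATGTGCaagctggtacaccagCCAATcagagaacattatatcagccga
Xlr4a: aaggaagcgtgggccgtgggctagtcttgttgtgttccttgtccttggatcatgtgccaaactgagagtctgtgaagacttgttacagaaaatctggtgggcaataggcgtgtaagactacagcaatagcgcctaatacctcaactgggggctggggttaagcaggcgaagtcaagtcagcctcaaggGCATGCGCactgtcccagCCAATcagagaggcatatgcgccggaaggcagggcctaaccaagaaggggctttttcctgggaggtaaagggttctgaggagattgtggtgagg
Xlr5a: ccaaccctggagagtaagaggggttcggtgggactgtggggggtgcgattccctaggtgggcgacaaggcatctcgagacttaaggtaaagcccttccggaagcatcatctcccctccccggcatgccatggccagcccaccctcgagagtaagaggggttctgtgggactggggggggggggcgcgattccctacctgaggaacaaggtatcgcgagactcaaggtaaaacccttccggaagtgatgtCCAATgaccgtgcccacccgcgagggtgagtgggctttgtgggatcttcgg

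Between subfamilies these windows had little in common. The *Xlr4* promoters were 98.1% to 98.6% identical over 270 to 293 aligned columns, the *Xlr3* promoters 87.8% to 94.3% over 236 to 280, and those of *Xlr5a* and *Xlr5b* 100% over 255. The *Xlr5c* window aligned with that of *Xlr5a* over only 21 columns, and that of *Xlr* with any other member over at most 36. The longest run of letters shared by *Xlr*, the *Xlr3* and the *Xlr4* promoters was gccaatcag, which contains CCAAT and was found in 7 of 10 members and in 2.16% of 32851 mouse promoters of this length. The *Xlr3* and *Xlr4* promoters shared the longer run cagccaatcagaga, which only 16 of the 32851 promoters hold. CCAAT alone was in 9 members and in 37.4% of all promoters. GCATGNGC, which does not overlap CCAAT, was in 6 members (*Xlr*, *Xlr3a*, *Xlr3c* and the *Xlr4* genes) and in 5.45% of all promoters. Since most of the sister promoters are near copies of each other, these member counts are not independent. The number of CG dinucleotides, the sites of DNA methylation, ranged from 1 in *Xlr5c* and 5 in *Xlr3a* to 16 in *Xlr5a* and *Xlr5b*, against a median of 7 over all promoters.

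The lines differed in depth and in a few features of the whole series that bear on the family. The values of a line are multiples of 1 step. With a step read as 1 sequenced read, a line holds 11904334 to 69645408 of them. All 140 values of the 10 members in 14 lines were whole multiples of it, and 31 were listed at 0. A value at or under 3 steps, 1.22 to 7.37 depending on the line, cannot be told from 0. RNA of 4 Y-linked genes summed to 2107 to 4640 in the BC XY lines and 2333 in CB XY 1. It summed to only 54 in the line labelled CB XY 2 and 226 in that labelled CB XY 3. These sums lay below or within the 82.4 to 1659 of the XX lines, and the BC XO lines had 157 and 175. The family ratio of XX to XY lines, the XY and interaction contrasts and some of the counts are therefore given with and without the pair labelled CB XY 2 and 3. The ranks, the values of single genes outside the family and the correlations over 14 lines include this pair. The median of 384 X-linked genes, relative to the BC XY and BC XO lines, was 0.53 to 0.70 on the log2 scale in the XX lines. It was -0.22 in CB XY 1, -0.25 in the line labelled CB XY 2 and 0.04 in that labelled CB XY 3, which was thus above both other lines of its group. All 10 ES cell markers were expressed in every group. The 14 fibroblast markers summed to 140914 to 286197 in the BC XX lines and to 46176 to 87469 in the other groups.

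The *Xlr3* genes had the highest summed read counts of the subfamilies, and most of these came from *Xlr3a* and *Xlr3c*. *Xlr3a* had normalised read counts of 742, 345 and 528 in the BC XX lines and of 1859, 1289 and 161 in the CB XX lines. The BC XY lines had 2.5, 9.98 and 6.02, those labelled CB XY had 2.02, 4.91 and 236, and the BC XO lines had 1.6 and 2.85. Every XX line was thus above every other line apart from the line labelled CB XY 3, which lay above CB XX 3. *Xlr3c* showed the same order at a lower level, with 336, 171 and 255 in the BC XX lines and 851, 568 and 50.6 in the CB XX lines. It had 8.74, 7.48 and 7.36 in the BC XY lines, 2.02, 7.37 and 90.9 in those labelled CB XY, and 4.79 and 0 in the BC XO lines. *Xlr3b*, which has the fewest stretches of its own, had 73.2, 36.2 and 60.9 in the BC XX lines and 156, 130 and 24 in the CB XX lines. It did not pass 3.75 in a BC XY or BC XO line, was listed at 0 in CB XY 1 and the line labelled CB XY 2, and had 26 in the line labelled CB XY 3.

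Of the *Xlr5* genes, *Xlr5a* had the highest read counts. Its values were 168, 96.5 and 182 in the BC XX lines and 567, 331 and 30.2 in the CB XX lines. In the XY and XO lines it stayed between 0 and 2.02 apart from 48 in the line labelled CB XY 3. *Xlr5b* had 80.9, 33.4 and 82.5 in the BC XX lines, 168, 73.1 and 13.3 in the CB XX lines, and at most 1.25 elsewhere apart from 9.09 in the line labelled CB XY 3. The line labelled CB XY 3 was below every XX line for this gene. *Xlr5c* had the lowest read counts of the 3, with 11.9, 3.26 and 3.93 in the BC XX lines and 22.7, 8.53 and 1.78 in the CB XX lines. All other lines were listed at 0 for it except the line labelled CB XY 3, with 1.3, which is 1 step.

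The *Xlr4* genes were expressed at moderate levels in XX lines and were at or next to 0 in most others. *Xlr4a* had 37.5, 22 and 39.3 in the BC XX lines and 114, 123 and 9.77 in the CB XX lines. *Xlr4c* had 21.4, 14.7 and 31.4 in the BC XX lines and 88.1, 98.7 and 8.89 in the CB XX lines. *Xlr4b* had 23.2, 17.9 and 16.7, then 66.8, 46.3 and 6.22 in the same order. None of the 3 genes had more than 1 step in any BC XY or BC XO line, in CB XY 1 or in the line labelled CB XY 2. The line labelled CB XY 3 had 31.2 for *Xlr4a*, 11.7 for *Xlr4b* and 13 for *Xlr4c*, each above the value of CB XX 3.

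*Xlr*, the founding member, was above 0 in every line, as was *Xlr3a*. It had 27.4, 12.6 and 20.6 in the BC XX lines and 28.4, 81.6 and 20.4 in the CB XX lines. The BC XY lines had 5, 3.33 and 2.01, those labelled CB XY had 4.04, 2.46 and 6.49, and the BC XO lines had 4.79 and 4.27. The XX lines did not overlap with the other 8 lines, and the line labelled CB XY 3, although the highest of these, was only slightly above BC XY 1.

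**Figure D1:**
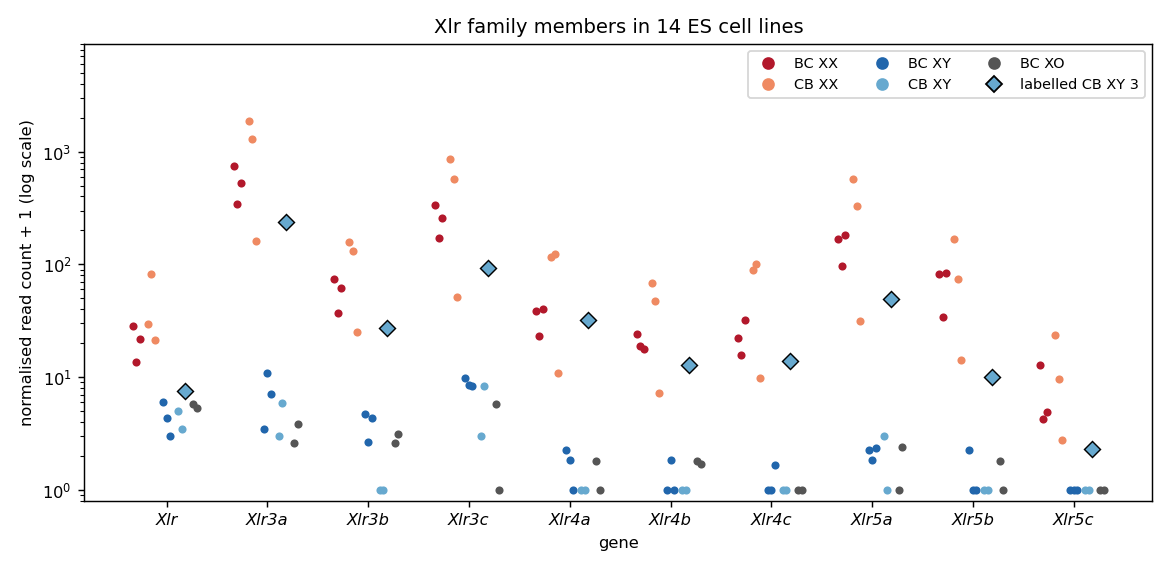
Normalised read count of each *Xlr* family member (plus 1, log scale) in the 14 ES cell lines, 1 point per line, coloured by cross and sex chromosomes. The diamonds, which mark the line labelled CB XY 3, sit among the XX points for the *Xlr3* and *Xlr4* genes and *Xlr5a*, while the other XY and XO points stay near the bottom.

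Summed over the 10 members, the family reached 1522, 753 and 1221 in the BC XX lines and 3922, 2750 and 326 in the CB XX lines. The BC XY lines had 23.7, 24.9 and 20.7, those labelled CB XY had 10.1, 14.7 and 474, and the BC XO lines had 15.2 and 11.4. The mean of the 6 XX lines was 1749 ± 1347 (SD, n = 6) and that of the 6 lines labelled XY was 94.7 ± 186 (SD, n = 6), a ratio of 18.5. Without the pair labelled CB XY 2 and 3 the XY mean was 19.9 ± 6.75 (SD, n = 4), and the ratio was 88. Against the BC XO lines, with a mean of 13.3 ± 2.67 (SD, n = 2), the BC XX lines, with a mean of 1165, were higher by a ratio of 87.8. These ratios restate the difference on which the family was picked, or share its XX lines, and are no evidence of their own.

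Ranked by the log2 difference between XX and XY lines, on a scale of log2(value + 5) that understates the change of weak genes, *Xlr3a* had rank 1, *Xlr5a* rank 2 and *Xlr3c* rank 4 among 16276 genes, at 5.22, 4.27 and 4.09. *Xlr5b* (3.38), *Xlr3b* (3.07), *Xlr4a* (2.68), *Xlr4c* (2.55) and *Xlr4b* (2.20) took ranks from 8 to 43. *Xlr*, at 1.87, had rank 80 and *Xlr5c*, at 1.22, rank 362. The median over the 10 members was 2.88, over 584 other X-linked genes 0.64, and over all genes -0.02. All 10 were among the genes tested, with a value of 10 or more in at least 2 lines, but they passed through their XX lines. For *Xlr5c* only BC XX 1 and CB XX 1 reached 10. The XX lines did not overlap with the XY lines for 3 of 10 members (*Xlr*, *Xlr5b* and, by values too low to be told apart, *Xlr5c*), against 2.26% of all genes and 26.9% of other X-linked genes, and for 10 of 10 without the pair labelled CB XY 2 and 3, against 3.19% and 30.5%. Within the BC cross all 10 were higher in each XX line than in each XY line (14.6% of all genes, 50.3% of X-linked genes) and than in each XO line (23.6% and 63.7%). Within the CB cross this held for the same 3 of 10 (11.8% of all genes, 57.2% of X-linked genes). In each of these counts that include CB XX 3, *Xlr5c* rests on 2 steps in that line, against 1 in the line labelled CB XY 3 and 0 in the others, which lie under the limit of 3 steps.

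Fibroblast RNA was highest in the BC XX lines, and the family was highest in 2 of the CB XX lines. Of the 14 fibroblast markers 8 were higher in XX than in XY lines (limma, adjusted p under 0.05) and none was lower. Their median log2 difference was 1.28, and over all genes 8.12% were higher. The contrast on which the family was picked thus also differs in fibroblast RNA. The mean log2 level of the 14 fibroblast markers was 11.18 to 12.31 in the BC XX lines and 8.60 to 10.18 in the other 11. CB XX 1, with the highest family sum, had a fibroblast level of 8.87, and CB XY 1, with the lowest family sum, had 9.86. The part of fibroblast RNA in the values of the family was not tested. In bulk RNA, fewer cells that express a gene and less RNA of it per cell cannot be told apart.

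The line labelled CB XY 3 had a family sum of 474, within the range of the XX lines (326 to 3922) and above the 24.9 of the next XY line. Its family RNA had the make-up of the XX lines for the *Xlr3* genes, which gave 74.5% of the sum (95% Wilson interval 69.8% to 78.7%, counting error only, if 1 step is 1 read), against 69.2% to 75.7% in the XX lines. The *Xlr4* share of 11.8% (8.86% to 15.5%) was above the 5.4% to 9.75% of the XX lines and the *Xlr5* share of 12.3% (9.34% to 16.1%) was below their 13.9% to 22%, with intervals that reach into both ranges. The line labelled CB XY 2, with a Y-linked sum of 54, had a family sum of 14.7. In the line labelled CB XY 3 the Y-linked sum of 226 lay within the range of the XX lines and above the 157 and 175 of the BC XO lines. Its X-linked median was 0.04, against -0.22 in CB XY 1 and -0.25 in the line labelled CB XY 2. The part that a wrong label or a mixture of cells could have in the values of the line labelled CB XY 3 was not tested.

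**Figure D2:**
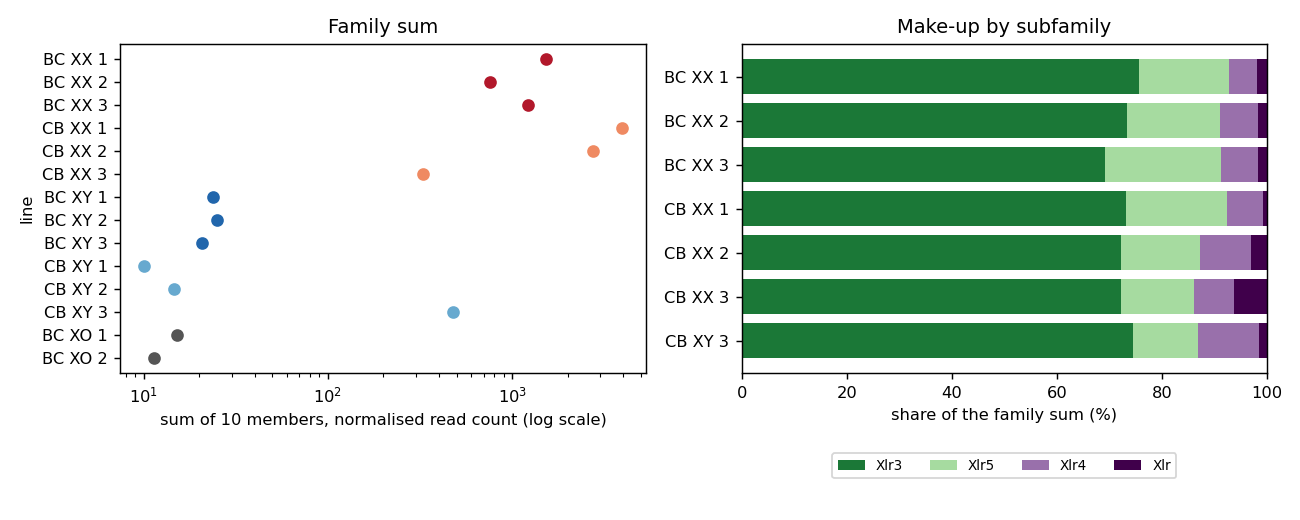
Left, the summed normalised read count of the 10 members in each line on a log scale. Right, the share of the sum (%) given by the *Xlr3*, *Xlr5* and *Xlr4* subfamilies and by *Xlr* in the 6 XX lines and the line labelled CB XY 3, where *Xlr3* genes make up 69.2% to 75.7% in every bar.

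Among XX lines the family sum varied from 326 to 3922, and the same lines were high or low for most of the cluster genes. CB XX 3 was the lowest of the 6 XX lines for all 9 cluster genes, and for *Xlr* it had rank 5 of 6. CB XX 1 or CB XX 2 was the highest for all 10 members. BC XX 2 had rank 5 for 8 of the 9 cluster genes and rank 4 for *Xlr4b*. CB XX 3 had an X-linked median of 0.70, the highest of the XX lines, and a fibroblast level of 10.18. Over the 14 lines the log2 level of each other member followed that of *Xlr3a* with Pearson's r from 0.877 (*Xlr*) to 0.987 (*Xlr5a*), a description in which XX and XY lines form separate clusters and in which sister copies share reads.

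Whether the direction of the cross changes the family was asked within XX lines, a comparison that the choice of genes did not use. The BC XX minus CB XX difference ran from -0.94 to 0.07 on the log2 scale over the 10 members, with a median of -0.51 against -0.01 for all genes. None of the 10 passed an adjusted p of 0.05 in limma with Benjamini-Hochberg adjustment, and none had an unadjusted p under 0.05, whereas 7.24% of all genes tested were called. *Xlr* came nearest, at -0.78 ± 0.40 (SE; 95% interval -1.63 to 0.08; adjusted p = 0.23, limma). For *Xlr3a* the difference was -0.51 with a 95% interval from -2.82 to 1.81, so a several-fold difference in either direction could not be detected with these lines. The result depended on which CB XX line was left out. Without CB XX 1 the differences of the 9 members tested ran from -0.94 to 0.80, and 4 changed sign. Without CB XX 2 those of the 10 members ran from -0.43 to 0.23, and 2 changed sign. CB XX 3 was the lowest XX line for every cluster gene, so leaving it out had to raise the CB XX level of these genes. Without CB XX 3 all 10 members were lower in BC XX than in CB XX lines, by -0.81 (*Xlr5b*) to -1.88 (*Xlr4c*). *Xlr4c* was called at an adjusted p of 0.02 (limma), 1 of 10 members where 16% of all genes tested were called. The adjusted p of *Xlr4b* was then 0.0591, that of *Xlr* 0.0709 and that of *Xlr4a* 0.0853 in the same limma fit. With the fibroblast level, which was higher in BC XX than in CB XX lines, as a covariate no member was called. In that fit only 55 of all genes were called, against 1179 without the covariate, so the lack of called members says little.

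**Figure D3:**
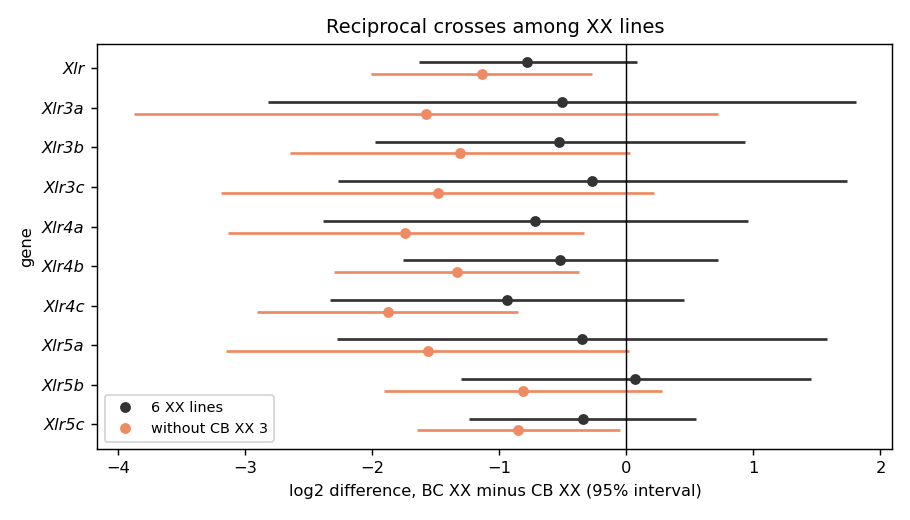
Log2 difference between BC XX and CB XX lines for each member with its 95% interval from limma, with all 6 XX lines (black) and without CB XX 3 (orange). With all lines the intervals of all 10 members include 0. Without CB XX 3, the lowest XX line for every cluster gene, every estimate lies below 0, from -0.81 to -1.88.

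In XY lines, where the X comes from a C57BL/6J mother in BC and from a CAST/EiJ mother in CB, the family was close to its lower limit of detection. The BC XY minus CB XY differences ran from -1.25 (*Xlr3a*; 95% interval -3.57 to 1.06) to -0.11, with a median of -0.53. No member was called by limma, with a lowest adjusted p of 0.571 and none under 0.05 unadjusted, and 0.7% of all genes were called. The negative signs rested on the line labelled CB XY 3, without which the 10 differences ran from 0.00 to 0.65. Without the pair labelled CB XY 2 and 3, where CB XY 1 is alone and assumed to vary like the other groups, the difference of *Xlr3a* was 0.61 (-1.54 to 2.77) and 7 of 10 members changed sign, while *Xlr* and *Xlr5a* stayed negative and *Xlr5c*, listed at 0 in all of these lines, had no difference. The normalised read counts of the cluster genes summed to 6.06 in CB XY 1 and to 18.7 to 21.6 in the BC XY lines. Behind these sums lie 3 steps and 15 to 28 steps, in lines of unlike depth.

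Loss of the second sex chromosome was examined in the BC cross. The BC XO minus BC XY differences ran from -0.88 (*Xlr3c*) to 0.19 (*Xlr*), with a median of -0.07 against 0.01 for all genes. No member was called by limma, where the lowest adjusted p was 0.999 and none had an unadjusted p under 0.05, and only 0.0307% of all genes were called. The lack of calls says little, because the BC XY lines took part in the choice of the family and most members were near 0 in both groups. *Xlr5c* was listed at 0 in all of these lines and *Xlr4c* had 1 step in the BC XY and 0 in the BC XO lines, so neither could be called. For *Xlr3a* the 95% interval was -3.16 to 2.01. The family sums of 15.2 and 11.4 in the XO lines were below the 20.7 to 24.9 of the BC XY lines, and 19 and 16 steps against 19 to 31 lie behind them. The parent that gave the single X of the XO lines is not stated in the labels.

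The difference between XX and XY lines was also compared between the crosses. The interaction, (BC XX minus BC XY) minus (CB XX minus CB XY), ran from -0.64 (*Xlr*) to 0.75 (*Xlr3a*; 95% interval -2.52 to 4.02) with a median of 0.02. No member was called by limma (lowest adjusted p = 0.794; none under 0.05 unadjusted), and 0.154% of all genes were. Without the pair labelled CB XY 2 and 3 the value for *Xlr3a* was -1.12.

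The make-up of the family was described in the XX lines by the share of each subfamily. *Xlr3* genes gave 72.8% ± 3.3 of the family sum in BC XX lines and 72.5% ± 0.493 in CB XX lines (SD, n = 3 each). *Xlr5* genes gave 18.9% ± 2.67 and 16.1% ± 2.85, *Xlr4* genes 6.6% ± 1.04 and 8.08% ± 1.5, and *Xlr* 1.72% ± 0.0666 and 3.32% ± 2.79. Within the *Xlr3* subfamily, *Xlr3a* gave 62.4% to 68.3% of the sum in the 6 XX lines, *Xlr3c* 21.5% to 31% and *Xlr3b* 5.45% to 10.2%. The smallest p that an exact permutation test (two-sided) of 3 against 3 lines can give is 0.1, so no difference in a share between the crosses could pass 0.05 here. The share of *Xlr* was highest in CB XX 3, at 6.27%, the line in which the cluster genes were lowest.

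The order of the copies depended on how their level was scaled, although *Xlr3c* had the highest XX median on both scales used here. The annotated exons covered 4045 bases in *Xlr3a*, 3780 in *Xlr3b* and 1584 in *Xlr3c*. The coding transcripts of these genes gave 1920, 1515 and 1535 stretches of 50 bases, so the level per kb depends on which exons are counted. Per kb of annotated exon, *Xlr3c* took the first place and *Xlr3a* the second in 5 of the 6 XX lines. Their order was turned in CB XX 3 and in the line labelled CB XY 3. *Xlr5a* was in the third place in all 7 of these lines. The XX medians were 187 normalised counts per kb for *Xlr3c*, 157 for *Xlr3a* and 100 for *Xlr5a*. *Xlr5b* followed at 44.2, *Xlr4a* at 25, *Xlr3b* at 17.7, *Xlr4c* at 11.8, *Xlr* at 10.3, *Xlr4b* at 8.02 and *Xlr5c* at 3.74. The range over XX lines was 39.8 to 460 for *Xlr3a* and 32 to 538 for *Xlr3c*, so neighbours in this order overlap in their ranges. When the same counts were divided by the number of 50-base stretches that belong to 1 gene alone, the XX medians per 100 stretches were 80.2 for *Xlr3a*, 102 for *Xlr3b* and 105 for *Xlr3c*. On that scale *Xlr5a* and *Xlr5b* also had close medians, 74.1 and 77. *Xlr5c* remained at 3.23, the *Xlr4* genes at 5.68 to 11.3 and *Xlr* at 1.73. Counts per kb of exon would be apt if reads with several matches were shared out among the copies, and counts per unshared stretch if such reads were dropped.

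**Figure D4:**
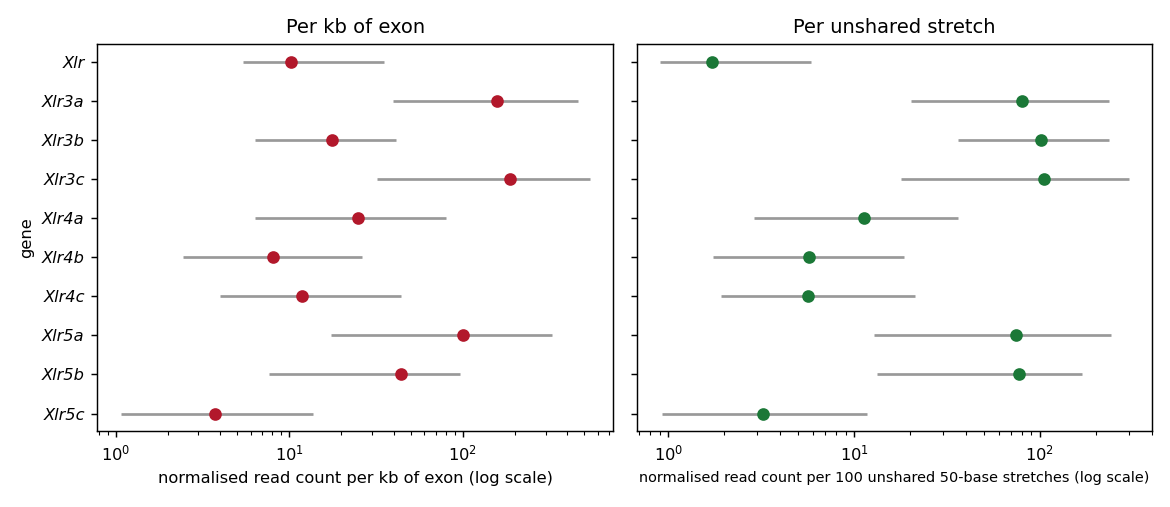
Level of each member in the 6 XX lines (point, median; bar, lowest to highest line; log scale), as normalised read count per kb of exon (left) and per 100 stretches of 50 bases found in no other copy (right). On the left *Xlr3b* (median 17.7) is below *Xlr3a* and *Xlr3c*, and *Xlr5b* (44.2) is below *Xlr5a*, while on the right *Xlr3b* (102) and *Xlr5b* (77) are near these copies. *Xlr5c* is far below the other *Xlr5* genes in both panels.

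The genes whose levels followed the family sum most closely over the 14 lines lay on other chromosomes. By Pearson's r of the log2 values these were *Apold1* on chromosome 6 (r = 0.98), *Lonrf2* on chromosome 1 (0.964), *Aqp8* on chromosome 7 (0.957), *Pramel6* on chromosome 2 (0.955) and *Cd3g* on chromosome 9 (0.955). The correlations are descriptions, since XX and XY lines form separate clusters. *Pramel6*, of a family expressed in early embryos and ES cells, had 106 to 206 in XX lines, 31.2 in the line labelled CB XY 3 and at most 9.82 in the other lines. *Apold1* had 101 to 190 in XX lines, 61 in the line labelled CB XY 3 and 16.2 to 29.9 elsewhere. *Cd3g*, a chain of the T cell receptor complex, had 5.89 to 18.3, 3.89 and at most 0.831 in the same order.

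Genes around the cluster were examined by position and not by value. Of 29 genes within 500 kb of its outermost members, 21 could be tested, and 16 were higher in XX than in XY lines (limma, adjusted p under 0.05) and none was lower, with a median difference of 0.83. Over all genes 8.12% were higher, but among other X-linked genes 54.8% were. The largest differences among these neighbours belonged to *Pnma5* and *Pnma3*, genes derived from retrotransposons that lie next to *Xlr4a*. *Pnma5* (chrX:70279327-70282442) had 1276 to 3727 in the XX lines and 144 to 739 in the lines labelled XY, with 739 in the line labelled CB XY 3 (log2 difference 2.57 ± 0.34, SE; adjusted p = 0.000556, limma). *Pnma3* had 63.8 to 476 in the XX lines and 8.08 to 97.4 in the lines labelled XY, again highest in the line labelled CB XY 3 (2.34 ± 0.46; adjusted p = 0.00585, limma). By contrast *F8a*, which lies inside the cluster between *Xlr4b* and *Xlr4c*, had a difference of 0.74 ± 0.25 (adjusted p = 0.0629, limma), close to the X-linked median of 0.64. The other called neighbours ran from 0.67 (*Srpk3*) to 1.37 (*Bgn*), a range that includes *Bcap31* (1.11) and *Nsdhl* (1.01), an enzyme of cholesterol synthesis. *Bgn* encodes a matrix protein of fibroblasts, and its difference was -0.12 with the fibroblast level as a covariate. In that fit 7 neighbours were called higher, and 11 were without the pair labelled CB XY 2 and 3.

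Around *Xlr* 8 of 12 genes could be tested, and 4 were higher in XX lines, none lower. *1700013H16Rik* had 29.5 to 284 in the XX lines and 2.01 to 35 in the lines labelled XY (log2 difference 2.5 ± 0.47, SE; adjusted p = 0.00471, limma). Its value of 35 was that of the line labelled CB XY 3. *4930502E18Rik* had 22.7 to 79.2 and 4.16 to 12.1 in the same order (1.84 ± 0.29; adjusted p = 0.00144, limma). For this gene the line labelled CB XY 3 had 9.09 and was not the highest. *Mospd1* (0.80) and *Fam122b* (0.63) were near the X-linked median. With the fibroblast level as a covariate none of the 4 was called. That fit took the call from 25 of 36 called genes named outside the family, among them neighbours of the cluster. The loss is thus not particular to the genes around *Xlr*, and its cause was not tested.

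**Figure D5:**
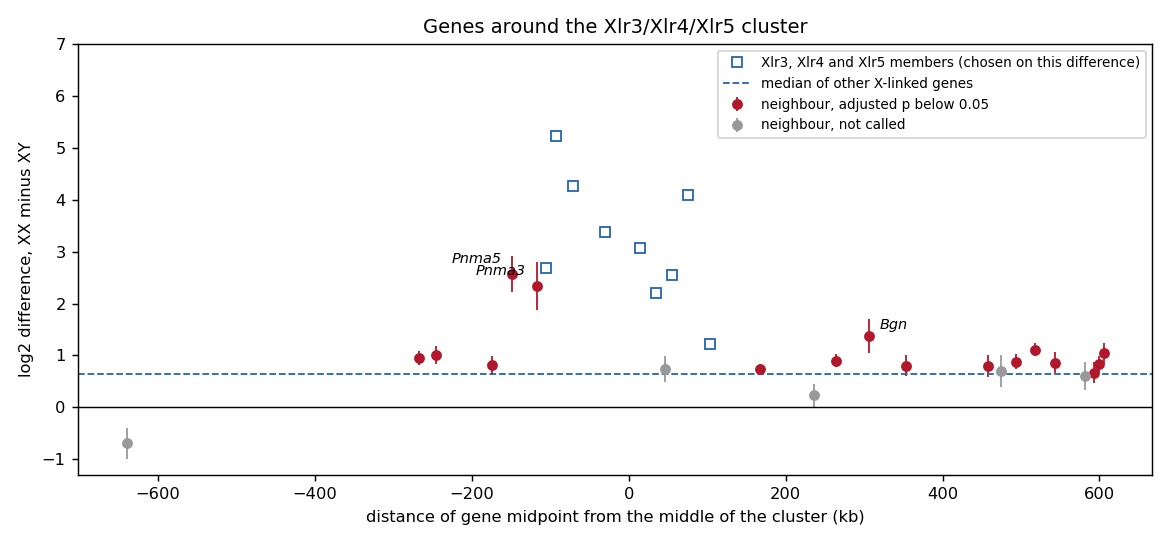
Log2 difference between XX and XY lines for genes within 500 kb of the *Xlr3*, *Xlr4* and *Xlr5* cluster, by distance from its middle in kb, with bars of 1 SE for the neighbours. Squares are the 9 cluster members, which were chosen on this difference, and the dashed line is the median of other X-linked genes, 0.64. *Pnma5* (2.57) and *Pnma3* (2.34) stand out from the other neighbours, which lie at or below 1.37.

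Genes with related functions were taken from lists. Of 14 genes of the synaptonemal complex and of meiotic cohesin, 7 were higher in XX lines and none was lower (8.12% of all genes were higher), with a list median of 0.69. *Hormad1*, a protein of meiotic chromosome axes, had 1215 to 1940 in the XX lines and 182 to 511 in the lines labelled XY (log2 difference 2.39; adjusted p = 5.55e-05, limma). The meiotic cohesin subunit *Smc1b* (2.24), *Sycp1* (1.89), a component of the synaptonemal complex, and the X-linked *Tex11* (1.63) were called too. *Sycp3*, the autosomal relative of the family, had 223 to 359 in the XX lines and 139 to 895 in the lines labelled XY, and was not called (-0.22; adjusted p = 0.686, limma). The related spermatid genes *Slx*, *Slxl1* and *Sly* were listed at 0 in all lines. Without the pair labelled CB XY 2 and 3 the list count was again 7. With the fibroblast level as a covariate it was 3, in the fit where 25 of 36 called genes outside the family lost their call.

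X-linked genes reported elsewhere to depend on the parent of origin could be tested for 2 of 10 listed names, *Fthl17* and *Gm5635*, and both were higher in XX lines, by 1.13 and 1.75 (adjusted p = 0.00684 and 0.00722, limma), as were 54.8% of other X-linked genes. Among 10 genes of the DNA methylation and repressor machinery, 1 was higher and 3 were lower in XX lines (6.27% of all genes were lower). *Atrx*, an X-linked chromatin remodeller, was higher by 0.86. The de novo methyltransferase *Dnmt3b* had 2815 to 9968 in the XX lines and 6451 to 16937 in the lines labelled XY (-1.35; adjusted p = 0.00472, limma), and its partners *Dnmt3l* (-0.73) and *Dnmt3a* (-0.62) were lower as well. Without the pair labelled CB XY 2 and 3, 1 of these 3 was still called lower.

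Lymphocyte markers, for which the family is named, were low in all lines. The 14 markers summed to 164 to 326 per line over all groups, less than *Xlr3a* alone in 5 of the 6 XX lines. Of 8 that could be tested, *Cd3g* (1.37) and *Cd3e* (0.78) were higher and *Cd79a* (-0.85) was lower in XX lines, with a median of 0.07, where 8.12% of all genes were higher and 6.27% lower. Male germ cell markers summed to 591 to 1070, and 1 of 4 tested was higher in XX lines, against the same 8.12% of all genes.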

How the data were processed

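RNA of 14 ES cell lines was read as single-end 50-base reads from stranded libraries of total RNA. The submitters' processing notes name TopHat2, Cuffdiff and mm9, and the annotation and the handling of reads with several matches are not given in the sources used here. The authors deposited 1 signal value, a depth-scaled number of reads, for each line and each of 23298 genes. Columns were matched to lines by name, and the CB XX lines are numbered as their columns, since these match only the group. Genes with a value of 10 or more in at least 2 lines (16276) were compared as log2(value + 5) in 1 model of 5 groups with limma 3.58.1 in R 4.3.3 (trended variance, Benjamini-Hochberg adjustment over all genes tested, threshold 0.05, 95% intervals), which had been tested on simulated data. The replicates are independent lines. A p-value sets a difference against the spread between lines, which limma estimates over the 5 groups together and adjusts by a trend over all genes. Sums, shares and ranks were computed in Python 3.11.15 from linear values, and shares have Wilson intervals. Promoters were aligned locally. The members and lists were chosen with earlier results of these data known. Genes named are the 10 members, neighbours within 500 kb, listed genes, and the 5 genes most like the family sum. Motifs were chosen after the sequences were read. Alternatives changed 1 choice at a time.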

Additional observations from a re-analysis of the deposited data

Results flagged for a closer look

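Within the 6 lines labelled XY, the line labelled CB XY 3 stood apart from the rest for 9 of 10 members and for their sum. In each case its gap to the next line, on the log2(value + 5) scale, was a larger part of the range of the group than the 95% limit of Dixon's test for 6 samples allows. The limit flags about 1 in 20 groups by chance only where values are normally distributed. That rate cannot be used here, since most members were at or under 3 steps in the other lines labelled XY. The XY values also entered the choice of the family. The flags are thus a description. In all, 22 groups were examined, which are not independent because sister copies share reads. Its *Xlr3a* value was 236, where the next line had 9.98, and its *Xlr3c* value was 90.9 against 8.74. *Xlr3b* had 26 against 3.75. For the *Xlr4* genes it had 31.2 (*Xlr4a*), 11.7 (*Xlr4b*) and 13 (*Xlr4c*), where no other line labelled XY passed 1.25. *Xlr5a* had 48 against 2.02 and *Xlr5b* 9.09 against 1.25. *Xlr5c* had 1.3, a single step that cannot be told from 0, where the other 5 lines were listed at 0, so that 8 members have values that can be told from 0 in this line and stand apart. The sum of the 10 members was 474 against 24.9.

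*Xlr* was not among these, with 6.49 in the line labelled CB XY 3 and 5 in the next line. No XX line was flagged for any member. The line labelled CB XY 3 had a Y-linked sum of 226 and a fibroblast level of 10.03. Its X-linked median relative to BC XY and BC XO lines was 0.04, against -0.22 in CB XY 1 and -0.25 in the line labelled CB XY 2. The part of these features in its *Xlr* values was not tested.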

How the results depend on the processing

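No member was called in any of the 4 tested contrasts under 26 alternatives (25 for XO against XY), apart from *Xlr4c* in BC XX against CB XX without CB XX 3, so that leaving out 1 line gave 0 to 1 called members there. Over these alternatives the lowest adjusted p of a member was 0.02 for BC XX against CB XX, 0.372 for BC XY against CB XY, 0.96 for XO against XY and 0.429 for the interaction (limma). Directions of uncalled differences were not stable. For *Xlr3a*, leaving out 1 line gave -1.58 to 0.16 in BC XX minus CB XX, -2.19 to 0.36 in BC XY minus CB XY and -0.87 to 1.68 in the interaction, and leaving out the pair labelled CB XY 2 and 3 gave 0.61 and -1.12 in the last 2. For *Xlr* in BC XY minus CB XY, leaving out 1 line gave -0.29 to 0.03. The XX minus XY difference of the family sum was 5.10 on the log2 scale and 5.66 from group medians. Without the pair labelled CB XY 2 and 3 it was 5.99 with both crosses weighted equally and 5.77 with the remaining lines weighted equally.

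Counts over all genes moved more. For BC XX against CB XX 1179 genes were called, 625 without a filter on low values, 785 without the XO lines, 680 without the pair labelled CB XY 2 and 3, 55 with the fibroblast level as a covariate, and 145 to 2593 with 1 line left out. For BC XY against CB XY 114 were called, and 26, 7 and 1125 with no filter, without that pair and with the covariate, and 9 to 434 with 1 line left out. XO against XY gave 5 calls, 8 with the covariate and 1 without 15 genes listed at 0 in a whole group. The interaction gave 25, and 16 without the pair labelled CB XY 2 and 3, 12 without those 15 genes and 12 to 51 with 1 line left out. Of genes around the cluster 16 were called higher in XX lines, 9 within 250 kb and 7 with the covariate. Around *Xlr* the counts were 4, 2 and 0. *Bgn* reversed to -0.12 with the covariate. Of 36 called genes outside the family, 28 lost their call under at least 1 alternative, 25 of them with the covariate, and 1 reversed. The causes were not tested.

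With the replicate number as a replicate block, BC XY against CB XY gave 345 calls and no member was called in any contrast. Same-numbered lines did not deviate together (26 pairs, r from -0.492 to 0.474, median -0.00297), so the numbers do not pair the lines. The tests for read counts by edgeR and DESeq2 that had been planned were not run, because the values are scaled and not accepted as whole reads. Quantile normalization and leaving out the 15 genes were chosen after seeing the data, as were the neighbour and list counts under each setting and the division by unshared stretches. Depth limits what can be said of XY and XO lines, where most cluster members had 0 to 3 steps.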
